A study of Mus musculus with 3 samples.

Results

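The epidermal cells richest in loricrin transcripts were described here. They were chosen by their *Lor* level: of 5760 cell barcodes kept in 3 libraries of mouse dorsal skin, 281 (4.88%) had at least 40000 *Lor* counts per 1000000 counts of the barcode (CPM). They are called *Lor*-high barcodes below, and each value was set against the other kept barcodes of the same library. The labels give 2 libraries of *Vdr* flox/flox mice (control 1 and control 2) and 1 of *Vdr* flox/flox; Krt14cre mice (*Vdr* cKO), all at postnatal day 18, and the floxed *Vdr* alleles are shared by the 3 libraries. Cre is driven by the promoter of *Krt14*, a keratin gene of the basal epidermis and the outer root sheath, and the skin of several male mice was pooled in each library, so the spread between mice is not contained in these values. Cells were scraped from trypsin-treated skin, passed through strainers and captured in droplets, in which the RNA of a cell receives a shared barcode.

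Keratinocytes divide in the basal layer, produce the keratins *Krt1* and *Krt10* in the spinous layer, and build the cornified envelope in the granular layer below the skin surface. Loricrin is the main protein of this envelope. It is cross-linked by transglutaminases with late cornified envelope (LCE) and filaggrin-family proteins, while lipids made in the same cells are bound to its outer face and the nucleus and organelles are broken down.

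*Lor*-high barcodes numbered 74 of 1480 kept barcodes in control 1 (5.0%, 95% exact binomial interval 3.95 to 6.24), 111 of 1658 in control 2 (6.69%, 5.54 to 8.01) and 96 of 2622 in the library labelled *Vdr* cKO (3.66%, 2.98 to 4.45). The intervals cover counting error only. The intervals of the 2 controls overlapped, and so did those of control 1 and the library labelled *Vdr* cKO, whereas the library labelled *Vdr* cKO lay below control 2. Barcodes of each library held 19943755, 29241653 and 31080936 deposited counts, in the order control 1, control 2 and *Vdr* cKO, which is kept for every series of 3 values below. *Lor*-high barcodes held 1721271, 2852495 and 1990949 counts, or 9.15%, 9.94% and 6.43% of the counts of the kept barcodes, and 56.4%, 57.5% and 36.6% of the *Lor* counts. In the controls, most *Lor* counts thus lay in few barcodes, as the rule selects for.

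The threshold cut through a continuous range of *Lor* levels. The barcodes just inside it had 40140 CPM, 40349 CPM and 40000 CPM of *Lor*, and those just outside had 38984 CPM, 39436 CPM and 39715 CPM. Within 10% of the threshold, 16, 8 and 22 barcodes lay above it and 17, 15 and 27 below it. Intermediate barcodes, with 10000 CPM to under 40000 CPM, numbered 580, 598 and 797. Among *Lor*-high barcodes the median level was 59733 CPM, 64573 CPM and 54570 CPM, and the highest was 205601 CPM, 205784 CPM and 234378 CPM.

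The median total of *Lor*-high barcodes was above that of the other barcodes in each library. The lowest, median and highest total was 867, 6512.5 and 273504 counts in control 1, 628, 11848 and 126824 in control 2, and 1000, 8987.5 and 251627 in the library labelled *Vdr* cKO, against medians of 4150, 4291 and 3934.5 in the other barcodes. The 38 members of control 1 with under 60000 CPM of *Lor* had a median total of only 3846.5 counts. After each barcode was thinned to 1000 counts, *Lor*-high barcodes held a median of 255, 317.5 and 403 genes, beside 259, 301 and 391 in intermediate barcodes and 272, 317 and 395 in those below 10000 CPM of *Lor*, so the classes held similar numbers of genes at equal depth. Mitochondrial transcripts made up a median of 1.18%, 0.972% and 0.669% of their counts, against 2.34%, 1.66% and 1.79%. The 5 deepest *Lor*-high barcodes of each library held 40.8%, 20.5% and 35.2% of its *Lor*-high counts, so pooled values are also given without them where that matters. In the 19, 23 and 13 *Lor*-high barcodes under 3000 counts, *Asprv1* was at 1727 CPM, 2971 CPM and 3524 CPM. From 3000 to under 10000 counts it was at 7446 CPM, 7848 CPM and 10391 CPM. *Crct1* was likewise lower under 3000 counts in each library. *Flg* was so in control 1 and the library labelled *Vdr* cKO, but not in control 2. Pooled values thus need not describe the shallow members. No *Lor*-high barcode was shared between libraries or lay within 1 base of another barcode of its library, whereas 27, 28 and 20 of the other kept barcodes were shared. Barcodes with 5000 CPM or more of antigen-presentation genes numbered 0, 3 and 3 among the *Lor*-high barcodes.

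**Figure D1:**
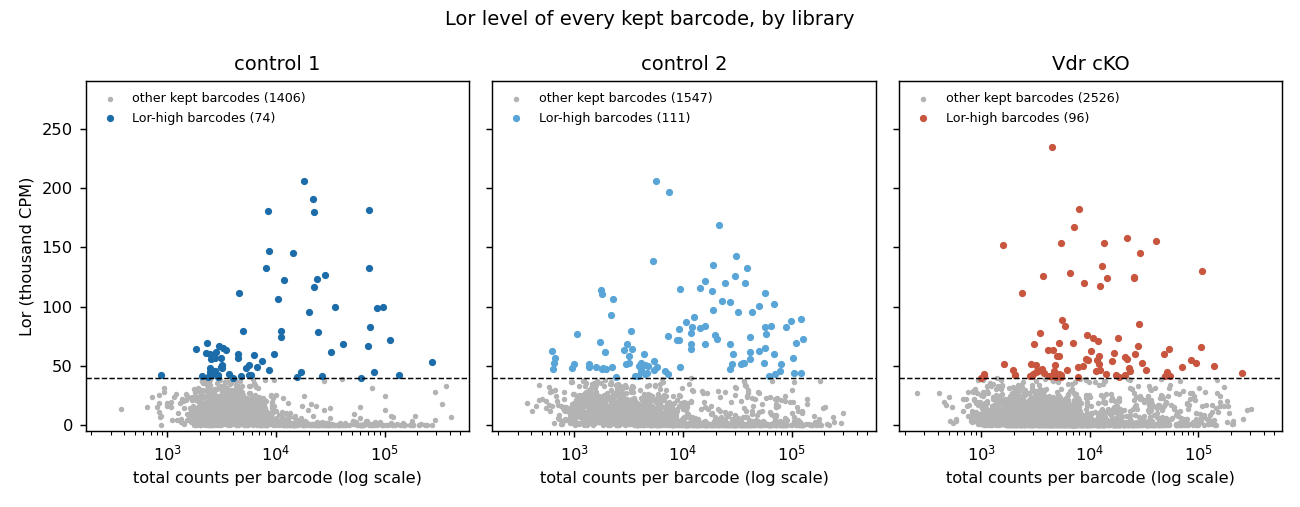
Level of *Lor* (linear scale, in units of 1000 CPM) against total counts (log scale) in each kept barcode of the 3 libraries, with a line at 40000 CPM. The 74, 111 and 96 *Lor*-high barcodes lie above the line at totals from 628 to 273504 counts, and the levels run on below it without a gap.

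Genes were compared on counts pooled over the *Lor*-high barcodes of a library and over its other kept barcodes. A gene is called higher or lower where it differed over 2-fold in the same direction in each of the 3 libraries, on a scale of CPM plus 1, among 1739 genes with at least 100 CPM in either class of every library. Higher genes numbered 181 (10.4%) and lower genes 119 (6.84%). Because the classes were cut by a gene of the same counts, these values are a description and carry no test. A large share of the counts of *Lor*-high barcodes belonged to a few abundant genes, and the median log2 ratio of all tested genes was -0.55, -0.60 and -0.23. With TMM or median-of-ratios factors, which set out to remove such a shift, the medians were 0.13, 0.14 and 0.35 or 0.37, 0.39 and 0.36, and the calls were 301 higher and 24 lower or 322 higher and 21 lower. Higher genes were 60.3% of calls on CPM and 92.6% or 93.9% with these factors. Such factors move all genes of a library alike, so genes called at over 2-fold kept their sign, while 721 of 1439 tested genes without a call were below a ratio of 1 in each library on CPM and 292 or 208 were with these factors. A gene that reaches 100 CPM only in the class where it is high had to differ in that library. Of the 181 higher genes, 66 also reached 100 CPM in the other barcodes of each library, and of the 119 lower genes 29 did so in the *Lor*-high barcodes, so counts over the tested members of a list are in part set by the level. Against the intermediate barcodes alone, 103 of 1562 genes were higher (6.59%) and 32 were lower (2.05%). Of the 181 higher genes, 102 were also higher than in the intermediate barcodes (56.4% of the former and 99.0% of the latter list), and of the 119 lower genes 25 were also lower (21.0% and 78.1%).

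The labelled cell type was checked against markers. The label was defined by 4 markers, *Lor*, *Lce1a2*, *Lce1c* and *Btc*. All were called higher, but *Lor* chose the barcodes and the remaining 3 reached the level in at least 1 library only through the *Lor*-high class, so their calls do not check the label. *Lor* itself (chr3:92080271-92083142, minus strand, GRCm38, a protein-coding gene), on which the barcodes were selected, stood at 81446 CPM, 74795 CPM and 67875 CPM against 6352 CPM, 6097 CPM and 8085 CPM. Of 11 further granular markers, 8 reached the level, and 5 were higher (62.5%, beside 10.4% of all tested genes), namely *Flg*, *Flg2*, *Cnfn*, *Casp14* and *Klk7*. All 5 also reached the level in the other barcodes of each library, but over the intermediate barcodes only *Flg* was called. None was lower, and their summed level was 24858 CPM, 28292 CPM and 15123 CPM against 6787 CPM, 7385 CPM and 5103 CPM. Among *Lor*-high barcodes under 3000 counts, *Flg* was at 426 CPM, 4192 CPM and 2008 CPM and *Klk7* at 3902 CPM, 2786 CPM and 1065 CPM. The pooled levels thus do not check the label for each barcode. *Rptn*, *Tgm3* and *Krt2*, which are also granular markers, were not tested and were at or near 0 in *Lor*-high barcodes. *Rptn* was at 0, 0.351 and 0 CPM against 11.1, 1.86 and 6.97 CPM in the others, and *Tgm3* at 0, 1.05 and 9.54 CPM against 13.8, 13.04 and 21.0 CPM, so both had lower values in *Lor*-high barcodes of each library. *Krt2* had 0, 0 and 2.01 CPM against 0, 0 and 3.07 CPM. These 3 genes thus do not bear out the label of granular keratinocytes.

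The LCE genes, whose products are cysteine- and glycine-rich envelope proteins, made up 5 of the 10 genes with the largest lowest ratio over the libraries. Of 19 LCE genes in the files, 8 reached the level and were called higher, but only *Lce1m* also reached it in the other barcodes of each library, and 11 were not tested, so this count is largely set by the level and only the values are given. *Lce1a2* was at 8069.6 CPM, 3411 CPM and 4062 CPM in *Lor*-high barcodes and at 169 CPM, 81.4 CPM and 73.2 CPM in the others, a fold of 47.4, 41.4 and 54.8. *Lce1c* was at 5845 CPM, 1679.6 CPM and 2986 CPM against 142 CPM, 71.5 CPM and 54.1 CPM. *Lce1m* was at 21768 CPM, 18569 CPM and 16802 CPM against 1146 CPM, 375 CPM and 772 CPM. For each of these genes the lowest *Lor*-high library lay above the highest value of the other barcodes. *Lce1a1* (22.8- to 41.3-fold), *Lce1b* (14- to 41-fold), *Lce1f* (16.3- to 44.0-fold) and *Lce1l* (24.5- to 45.9-fold) behaved alike, and *Lce6a*, at the edge of the cluster, was 4.85- to 12.1-fold higher. LCE1 genes resemble each other to differing degrees. *Lce1a1* and *Lce1a2*, the most alike of the pairs compared, are 88.0% identical over their aligned transcripts and share a stretch of 80 bases. *Lce1a2* and *Lce1c* are 76.1% identical. How reads that fit several genes were counted is not given in the sources used here, so the split among LCE1 genes is uncertain. *Lce1m* is no more than 52.5% identical to any of 8 other LCE1 genes, with a longest shared stretch of 38 bases.

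The genes of the envelope lie together in the epidermal differentiation complex. In the interval chr3:90511034-93564643 (GRCm38, positions from GENCODE M21), 21 of 70 listed genes were tested. Apart from *Lor*, 13 of 20 were higher (65.0%) and only *S100a10* (5.0%) was lower, while outside the interval 166 of 1700 tested genes with a position were higher (9.76%) and 117 lower (6.88%). Of the 13, 6 also reached the level in the other barcodes of each library. The higher genes ran from *Lce6a*, 539 kb from *Lor*, to *Flg*, 1190 kb from *Lor*, on the same side. *S100a14* and *S100a16*, at the far end on the other side, were not called. *S100a10*, which encodes a partner of annexin A2 and closes the interval, was at 43.0 CPM, 38.6 CPM and 133 CPM against 216 CPM, 215 CPM and 327 CPM. Its call was lost under 4 of the 19 alternatives tried, among them both sets of scaling factors.

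**Figure D2:**
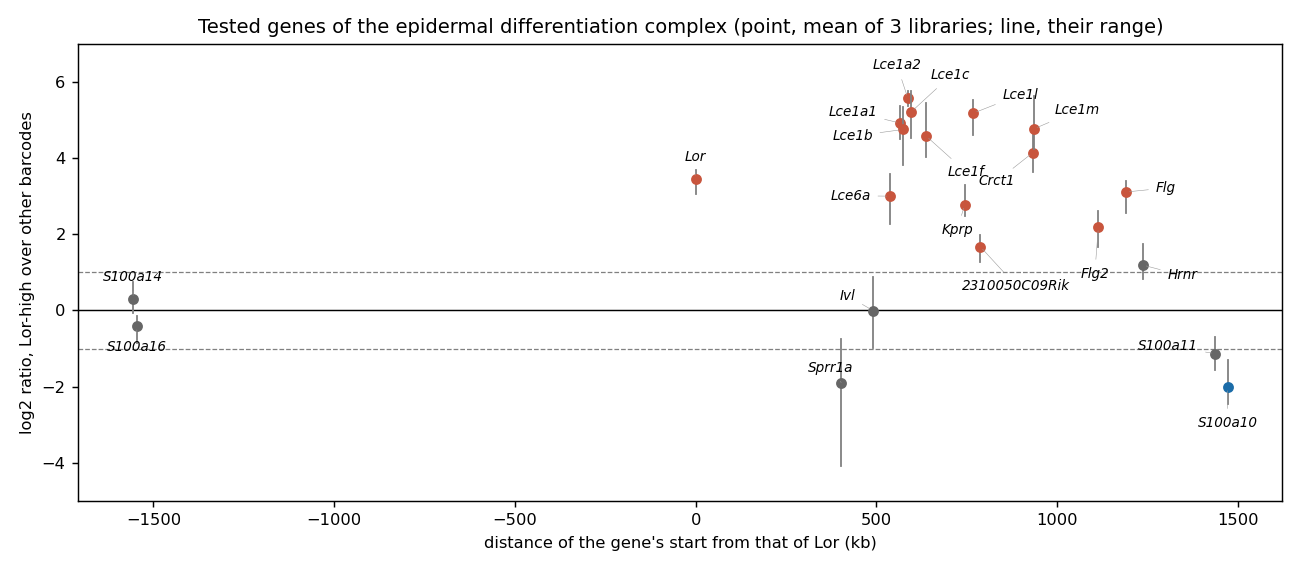
Log2 ratio of *Lor*-high over other barcodes (mean of the 3 libraries as points, lowest and highest library as bars) for the tested genes of the epidermal differentiation complex, against the distance of the gene from *Lor* in kb. The LCE1 genes, *Crct1*, *Kprp*, *Flg2* and *Flg* lie above 1 to one side of *Lor*, and *S100a10* lies below -1 at the end.

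The bases just before the start of these genes are shown because the pooled levels of the genes were higher in the same class. The 120 bases before the start of *Lor* and of the 6 LCE1 genes named above that the promoter table holds (RefSeq, GRCm38.p6) are printed 5′ to 3′ on the strand of the gene, with the matches of TATAAA and ATAAAAG on that strand and of TGANTCA on both strands in capitals.
*Lor* chr3:92083143-92083262 (minus strand): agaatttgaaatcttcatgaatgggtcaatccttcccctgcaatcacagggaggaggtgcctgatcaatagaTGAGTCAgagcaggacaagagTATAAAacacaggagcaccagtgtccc
*Lce1a2* chr3:92670316-92670435 (minus strand): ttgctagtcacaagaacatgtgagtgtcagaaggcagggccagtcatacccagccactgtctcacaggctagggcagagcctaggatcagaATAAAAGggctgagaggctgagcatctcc
*Lce1c* chr3:92679127-92679246 (plus strand): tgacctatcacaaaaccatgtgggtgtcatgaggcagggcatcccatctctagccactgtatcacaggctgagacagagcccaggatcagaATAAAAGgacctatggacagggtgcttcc
*Lce1l* chr3:92851287-92851406 (minus strand): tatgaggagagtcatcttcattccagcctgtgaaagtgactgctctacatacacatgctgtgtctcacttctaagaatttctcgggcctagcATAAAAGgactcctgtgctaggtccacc
*Lce1m* chr3:93019062-93019181 (minus strand): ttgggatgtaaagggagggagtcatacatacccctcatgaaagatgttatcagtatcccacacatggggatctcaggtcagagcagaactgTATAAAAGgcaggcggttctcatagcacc
*Lce1a1* chr3:92648308-92648427 (minus strand): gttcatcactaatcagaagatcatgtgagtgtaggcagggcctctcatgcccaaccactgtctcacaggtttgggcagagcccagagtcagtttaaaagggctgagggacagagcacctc
*Lce1b* chr3:92656927-92657046 (minus strand): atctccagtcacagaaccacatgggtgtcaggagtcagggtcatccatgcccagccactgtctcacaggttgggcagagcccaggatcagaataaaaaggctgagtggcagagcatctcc
*Lor* held TATAAA beginning 27 bases and TGAGTCA beginning 48 bases before its start. *Lce1a2*, *Lce1c*, *Lce1l* and *Lce1m* held ATAAAAG beginning 28 or 29 bases before the start, which in *Lce1m* overlaps TATAAA, and the windows of *Lce1a1* and *Lce1b* held none of these letters. Within 50 bases of the start, ATAAAAG was found in 4 of the 7 higher LCE genes with a promoter in the table (57.1%), in 1.24% of 1373 tested genes with one and in 1.24% of all 27025 promoters. TGANTCA, the letters bound by AP-1 factors, was found within 250 bases in 18 of 143 higher genes (12.6%), in 1 of 92 lower genes (1.09%), in 6.77% of the tested genes and in 6.87% of all promoters, and in none of the 7 LCE genes. CACCC, letters bound by Krüppel-like factors, was in 65.0% of higher genes and 56.5% of tested genes. AACCNGTT, letters of the Grainyhead-like family, was in 0 of 143 higher genes and 1.24% of tested genes. These matches are a description of the letters only, and the LCE promoters share ancestry.

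Among other envelope proteins, with *Lor* left out, 5 of 13 tested genes were higher (38.5%, beside 10.4% of all tested genes) and none was lower. *Crct1*, a small cysteine-rich envelope protein, was at 16635 CPM, 15171 CPM and 13829 CPM against 1023 CPM, 556 CPM and 1106 CPM. *Flg*, the precursor of filaggrin, which bundles keratin filaments, was at 4935 CPM, 4513 CPM and 1844 CPM against 472 CPM, 428 CPM and 313 CPM. *Flg2* was 3.19- to 6.10-fold, *Kprp* 5.54- to 9.82-fold and *Cnfn* 2.96- to 4.94-fold higher. The remaining 8 were not called. *Krtdap*, *Sbsn* and *Dmkn*, secreted proteins of the suprabasal layers, were abundant in both classes: *Krtdap* was at 25678 CPM, 45009 CPM and 22779 CPM against 16041 CPM, 26404 CPM and 16523 CPM. *Ivl*, encoding involucrin, an early envelope protein, had ratios on both sides of 1 (1.07, 0.506 and 1.83). *Evpl*, encoding envoplakin, was at 191 CPM, 296 CPM and 245 CPM against 556 CPM, 561 CPM and 272 CPM. Of the enzymes that cross-link the envelope, only *Tgm1* reached the level, at 128 CPM, 179 CPM and 262 CPM against 58.4 CPM, 55.0 CPM and 65.7 CPM. It was called higher, as were 10.4% of all tested genes, but it reached the level only through the *Lor*-high barcodes. Its call was lost under 4 of the 19 alternatives, among them the comparison with intermediate barcodes. The small proline-rich list had 1 tested gene, *Sprr1a*, at 32.5 CPM, 58.9 CPM and 269.7 CPM against 564 CPM, 109 CPM and 451 CPM, which was not called.

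Proteases shed and remodel the envelope. Of 18 tested proteases and inhibitors, 7 were higher (38.9%, beside 10.4% of all tested genes), namely *Asprv1*, *Klk7*, *Klk9*, *Casp14*, *Ctsl*, *Ctsh* and *Wfdc5*, and none was lower. The remaining 11 were not called, among them *Klk5* and *Klk8*, which also act in shedding, and *St14*, *Ctsd* and *Blmh*. Only 4 of the 7 higher genes also reached the level in the other barcodes of each library. *Asprv1*, the aspartic protease that processes profilaggrin, was at 10850.1 CPM, 9753 CPM and 11013 CPM against 1523 CPM, 1154 CPM and 1292 CPM. *Klk7*, a kallikrein that cuts corneodesmosomes, was at 6478 CPM, 7836 CPM and 4787 CPM against 1934 CPM, 2138 CPM and 1553 CPM. *Ctsl*, a cathepsin, was 7.97-, 24.6- and 9.66-fold higher. *Casp14*, the caspase of cornification, was only just past the limit in control 1 (2.01-fold) and lost its call under 8 of the 19 alternatives tried. *Ctsh* lost its call under 6 and *Wfdc5* under 5 of them. *Spink5*, the inhibitor of kallikreins, was abundant in both classes (10237 CPM, 12654 CPM and 7820.4 CPM against 8607 CPM, 9195 CPM and 4920.2 CPM) and not called.

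Of 18 tested genes of the barrier lipid list, 10 were higher (55.6%, beside 10.4% of all tested genes). Another 2 were lower (11.1%, beside 6.84%), which is near the share of all tested genes. Only 1 of the 10 also reached the level in the other barcodes of each library. *Smpd3*, a sphingomyelinase, was at 1102 CPM, 749.9 CPM and 478 CPM against 54.1 CPM, 40.3 CPM and 33.9 CPM. *Alox12b*, a lipoxygenase that oxidises the linoleate of acylceramides, was at 671 CPM, 686 CPM and 594 CPM against 127 CPM, 159.6 CPM and 95.6 CPM, and *Aloxe3* and *Sdr9c7*, which act after it, were 2.33- to 7.14-fold and 3.88- to 8.59-fold higher. *Elovl1*, which elongates saturated fatty acids, was the closest in its folds (2.86, 3.19 and 2.89). *Cers3*, *Pnpla1*, *Asah1*, *Lipn* and *Lipk* were also higher, though *Lipk* lost its call under 8, *Pnpla1* under 6 and *Asah1* under 5 of the 19 alternatives. *Alox12e* was lower, at 6.97 CPM, 21.0 CPM and 201 CPM against 215 CPM, 188 CPM and 492 CPM. Its call was lost under 6 of the 19 alternatives, among them both sets of scaling factors. *Fa2h*, a hydroxylase of fatty acids, was lower too, and it belongs with the most strongly lower genes of all.

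The 10 lowest genes by the rule were *Far2*, *Serpina3j*, *Scd3*, *Cyp2g1*, *Cers4*, *Fa2h*, *Soat1*, *Mgst1*, *Elovl5* and *Mgll*. Each was under 100 CPM in the *Lor*-high barcodes of every library and was tested only through the other barcodes. With the mean of single-barcode CPM all but *Mgst1* and *Mgll* lost the call, and *Far2*, *Serpina3j* and *Elovl5* lost it with either set of scaling factors. *Scd3*, a desaturase of sebaceous cells, was at 41.8 CPM, 10.2 CPM and 13.6 CPM against 775 CPM, 772 CPM and 152 CPM. *Cers4*, a ceramide synthase of the hair follicle and sebaceous gland, was at 15.7 CPM, 25.6 CPM and 24.6 CPM against 407 CPM, 226 CPM and 281 CPM. Of 6 markers of sebaceous cells, 3 were not tested. The 3 tested, *Scd1*, *Scd3* and *Mgst1*, were called lower (100%, beside 6.84% of all tested genes). Each reached the level in at least 1 library only through the other barcodes. The 6 markers summed to 308 CPM, 94.7 CPM and 269.7 CPM against 3472 CPM, 2091 CPM and 1564 CPM, with *Scd1* the most abundant. Their part in the lower lipid genes was not tested. In the comparison with intermediate barcodes, *Scd3* was called lower as well, and the other 9 were under 100 CPM in both classes of at least 1 library and were not tested.

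Of the 10 highest genes, 5 were LCE1 genes (*Lce1a2*, *Lce1l*, *Lce1c*, *Lce1a1* and *Lce1m*). The others were *Krtap3-2*, a keratin-associated protein best known from the hair shaft, *Aif1l*, an actin-binding protein, *Spns2*, a transporter of sphingosine-1-phosphate, and *5430427M07Rik* and *Gm45609*. *Krtap3-2* was at 824 CPM, 613 CPM and 413 CPM against 21.8 CPM, 9.83 CPM and 20.7 CPM, whereas the hair shaft and matrix markers summed to 0, 10.5 and 9.54 CPM in the same barcodes. *Aif1l* was at 731 CPM, 568 CPM and 651 CPM against 32.6 CPM, 9.75 CPM and 32.1 CPM. *Spns2* was at 379 CPM, 286 CPM and 330.5 CPM against 19.3 CPM, 13.6 CPM and 13.6 CPM. *5430427M07Rik*, on chromosome 12, was 26.9-, 69.6- and 66.2-fold higher and *Gm45609* 20.4-, 66.8- and 71.8-fold. Both are annotated as antisense, and whether the counting used strand is not given in the sources used here, so their reads cannot be told apart from those of the genes opposite. *Gm45609* was counted in only 5, 11 and 6 *Lor*-high barcodes, and it lost its call under 6 of the 19 alternatives.

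**Figure D3:**
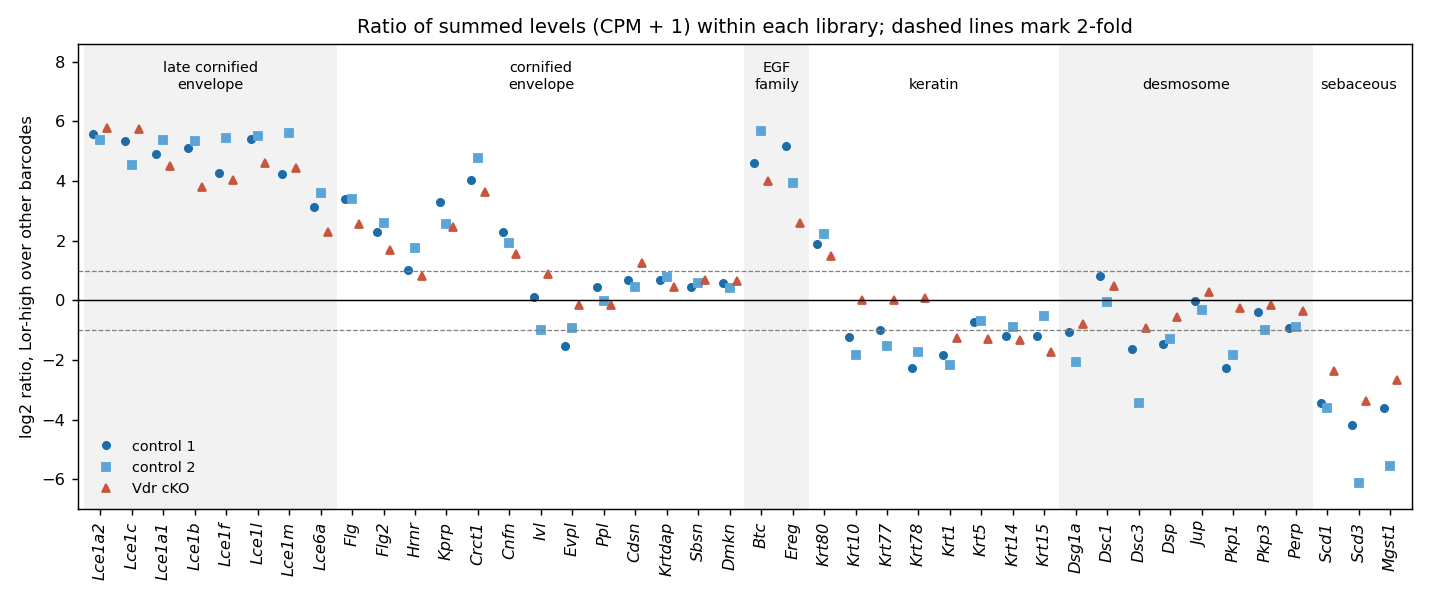
Log2 ratio of *Lor*-high over other barcodes (CPM plus 1) for named genes, with 1 point per library. The tested LCE1 genes lie above 3 in all 3 libraries, while *Krt10* and *Krt77* lie near or below -1 in the controls and near 0 in the library labelled *Vdr* cKO.

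Of 11 genes of the EGF family, 9 were not tested. The 2 tested, *Btc* and *Ereg*, were called higher (100%, beside 10.4% of all tested genes). Both reached the level in at least 1 library only through the *Lor*-high barcodes, so the call is in part set by the level. *Btc* (chr5:91357261-91402994, minus strand, GRCm38), encoding betacellulin, a ligand of the EGF receptor, was at 2345 CPM, 2536 CPM and 3121 CPM in *Lor*-high barcodes and at 95.0 CPM, 48.2 CPM and 193 CPM in the others, a fold of 24.4, 51.5 and 16.1. *Ereg*, encoding epiregulin, was at 781 CPM, 535 CPM and 198 CPM against 20.8 CPM, 34.3 CPM and 32.1 CPM. Of the genes not tested, *Tgfa*, another ligand, was at 58.7 CPM, 141 CPM and 191 CPM against 3.92 CPM, 5.57 CPM and 15.5 CPM, and *Egfr*, the receptor, at 19.8 CPM, 4.91 CPM and 6.03 CPM against 67.2 CPM, 40.7 CPM and 67.0 CPM. A *Btc* count was present in 31 of 74, 50 of 111 and 74 of 96 *Lor*-high barcodes. After each barcode was thinned to 1000 counts, which left out 1, 5 and 0 *Lor*-high barcodes, the shares were 34.2% (23.5 to 46.3), 33.0% (24.2 to 42.8) and 64.6% (54.2 to 74.1). The interval of the library labelled *Vdr* cKO lay above those of both controls, which compares the barcodes of these libraries and not the genotypes, and the *Lor*-high barcodes of that library also held more genes at this depth (403 against 255 and 317.5). In barcodes with antigen-presentation genes outside the *Lor*-high class, which should lack *Btc*, the thinned shares were 15.0% (3.21 to 37.9), 0% (up to 13.7) and 11.5% (2.45 to 30.2), of 20, 25 and 26 barcodes. Median totals there were 3777, 2092 and 4778.5 counts. Intermediate barcodes had 5.44%, 5.21% and 12.5%.

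Of 9 tested cytokine and secreted protein genes, 4 were higher (44.4%, beside 10.4% of all tested genes), 1 of which also reached the level in the other barcodes of each library, and none was lower. *Il18*, an alarmin stored in keratinocytes, was at 592 CPM, 1249 CPM and 1071 CPM against 68.0 CPM, 42.4 CPM and 75.8 CPM. *Il1f5* and *Il1f9*, an antagonist and an agonist at the same interleukin receptor, were 2.50- to 3.60-fold and 7.49- to 9.68-fold higher, and *Slurp1* 3.70- to 7.17-fold. Among 13 tested transcription factors of differentiation, *Prdm1*, encoding the terminal differentiation repressor Blimp1, was higher (417 CPM, 441 CPM and 319.9 CPM against 50.3 CPM, 45.8 CPM and 33.3 CPM) and *Trp63*, the factor of the basal state, was lower (22.1 CPM, 52.6 CPM and 105 CPM against 133 CPM, 143 CPM and 259 CPM), each 7.69% of the list beside 10.4% and 6.84% of all tested genes. *Prdm1* was under 100 CPM in the other barcodes of every library, and *Trp63* in the *Lor*-high barcodes of both controls. Both calls are thus in part set by the level. The *Trp63* call was lost under 4 of the 19 alternatives, among them both sets of scaling factors. *Klf4*, encoding a factor of barrier formation, was 1.78-, 1.70- and 1.88-fold and was not called. Of 9 tested genes of organelle clearance, *Trex2*, a DNA exonuclease, the autophagy genes *Map1lc3a* and *Gabarapl2*, and *Bnip3*, a receptor of mitophagy, were higher (44.4%, beside 10.4%), and the RNA-cutting enzyme gene *Endou* was lower (11.1%, beside 6.84%). Of the 4, 2 also reached the level in the other barcodes of each library. The *Endou* call was lost under 6 of the 19 alternatives, among them both sets of scaling factors. *Trex2* was at 795 CPM, 865 CPM and 649 CPM against 112 CPM, 103 CPM and 102 CPM. No gene of 7 tested tight junction and connexin genes, 7 heat shock genes or 9 immediate early genes was called, and of 8 tested calcium genes only *Atp2b4*, a calcium pump of the plasma membrane, was called, as lower. With 10.4% and 6.84% of all genes called, lists of this size would hold few calls.

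Keratins and adhesion genes of the layers below differed in their ratios. *Krt80*, a keratin of late differentiation, was higher (1902 CPM, 2442 CPM and 1885 CPM against 514 CPM, 516 CPM and 664 CPM) and *Krt1* lower (689 CPM, 494 CPM and 639 CPM against 2447 CPM, 2215 CPM and 1546 CPM). The *Krt1* call was lost under 5 of the 19 alternatives, among them both sets of scaling factors. *Krt10*, the partner of *Krt1*, was at 15673 CPM and 9884 CPM against 37159 CPM and 35499 CPM in the controls, but at 24454 CPM against 24147 CPM in the library labelled *Vdr* cKO. *Krt77* and *Krt78* had the same form, with 0.501-, 0.344- and 0.996-fold for *Krt77* and 0.208-, 0.299- and 1.06-fold for *Krt78*. Without the 5 deepest *Lor*-high barcodes, *Krt10* was at 13076 CPM, 8691 CPM and 21471 CPM, and over single barcodes its median was 15466 CPM, 8999.8 CPM and 15505 CPM, so the gap between control 1 and the library labelled *Vdr* cKO was not present in the medians. The desmosome genes had no call among 8 tested, and 6 were below a ratio of 1 in all libraries on CPM but 3 with either set of scaling factors. *Dsp*, encoding desmoplakin, was at 1933 CPM, 2235 CPM and 2258 CPM against 5293 CPM, 5487 CPM and 3367 CPM. Of 77 tested ribosomal protein genes, 18 were lower (23.4%, beside 6.84% of all tested genes), of which 0 kept the call with either set of scaling factors. Of the 77, 75 had a ratio under 1 in each library on CPM, 65 with TMM and 48 with median-of-ratios factors. The 85 genes summed to 30434 CPM, 33116 CPM and 44406 CPM against 59469 CPM, 73332 CPM and 87932 CPM. The 8 tested mitochondrial genes had no call, and their ratios were under 1 in each library for 8 on CPM, 5 with TMM and 2 with median-of-ratios factors. The median log2 ratio of the ribosomal list, -0.96, -1.16 and -1.05, stands beside -0.55, -0.60 and -0.23 for all tested genes.

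Markers of other cells were counted at low levels, with exceptions. The basal list summed to 2489 CPM, 2475 CPM and 4862 CPM against 5343 CPM, 3759 CPM and 14281 CPM, with *Krt15* the most abundant and none of 4 tested genes called. The upper follicle list had 2 tested genes. *Krt79* was lower (141 CPM, 20.0 CPM and 205 CPM against 297 CPM, 283 CPM and 804 CPM), a call lost under 8 of the 19 alternatives, and *Cst6* was not called. The lists that follow had no tested gene. Inner root sheath markers summed to 0, 0 and 40.7 CPM against 0.644, 2.83 and 250.2 CPM in the other barcodes, and companion layer markers to 0, 2.45 and 26.1 CPM against 15.6, 41.0 and 224 CPM. Melanocyte markers summed to 0, 0.351 and 38.7 CPM against 4.51, 3.91 and 39.6 CPM. Macrophage (at most 1.05 CPM), fibroblast (at most 1.74 CPM) and endothelial markers (at most 0.351 CPM) were at or near 0. In 1 library each, a list was above the other barcodes. T cell markers were at 0.581, 79.2 and 18.6 CPM against 26.9, 8.24 and 66.6 CPM, bulge markers at 0, 58.5 and 142 CPM against 81.0, 28.5 and 314 CPM, and red blood cell markers at 47.1, 15.4 and 67.3 CPM against 112, 513 and 62.4 CPM. The antigen-presenting list was at 47.1 CPM, 142 CPM and 537 CPM against 180.0 CPM, 253 CPM and 312 CPM. *Cd74*, the most abundant of it in control 2 and the library labelled *Vdr* cKO, was at 5.23 CPM, 91.8 CPM and 293 CPM, and without the 0, 3 and 3 barcodes with antigen-presentation genes it was at 5.23 CPM, 23.2 CPM and 24.7 CPM. *Cd207* was at 0, 0 and 1.00 CPM.

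Within the *Lor*-high barcodes, several genes were higher or lower still in the bands of higher *Lor*. From 40000 to under 60000, to under 80000 and to 80000 CPM or more of *Lor*, the barcodes numbered 38, 16 and 20 in control 1, 48, 26 and 37 in control 2, and 59, 15 and 22 in the library labelled *Vdr* cKO. *Asprv1* stepped from 6049 CPM to 13627 CPM and 14753 CPM in control 1, from 5089 CPM to 8017 CPM and 15272 CPM in control 2, and, in the library labelled *Vdr* cKO, from 8442 CPM to 11098 CPM and 19529.6 CPM. *Smpd3* ended at 1787 CPM, 1059 CPM and 1419 CPM in the top band, from 667 CPM, 472 CPM and 237 CPM in the first. Both genes were highest in the top band of each library. *Krt10* went the other way, from 24191 CPM to 16933 CPM and 5584 CPM in control 1, and from 16812 CPM to 8863 CPM and 3870.3 CPM in control 2. In the library labelled *Vdr* cKO it was at 27605 CPM, 36855 CPM and 4720.4 CPM, so the library was higher than the controls in the lower bands and between them in the top band. *Dsp* declined at every step in each library, to 927 CPM, 1213 CPM and 1299 CPM.

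**Figure D4:**
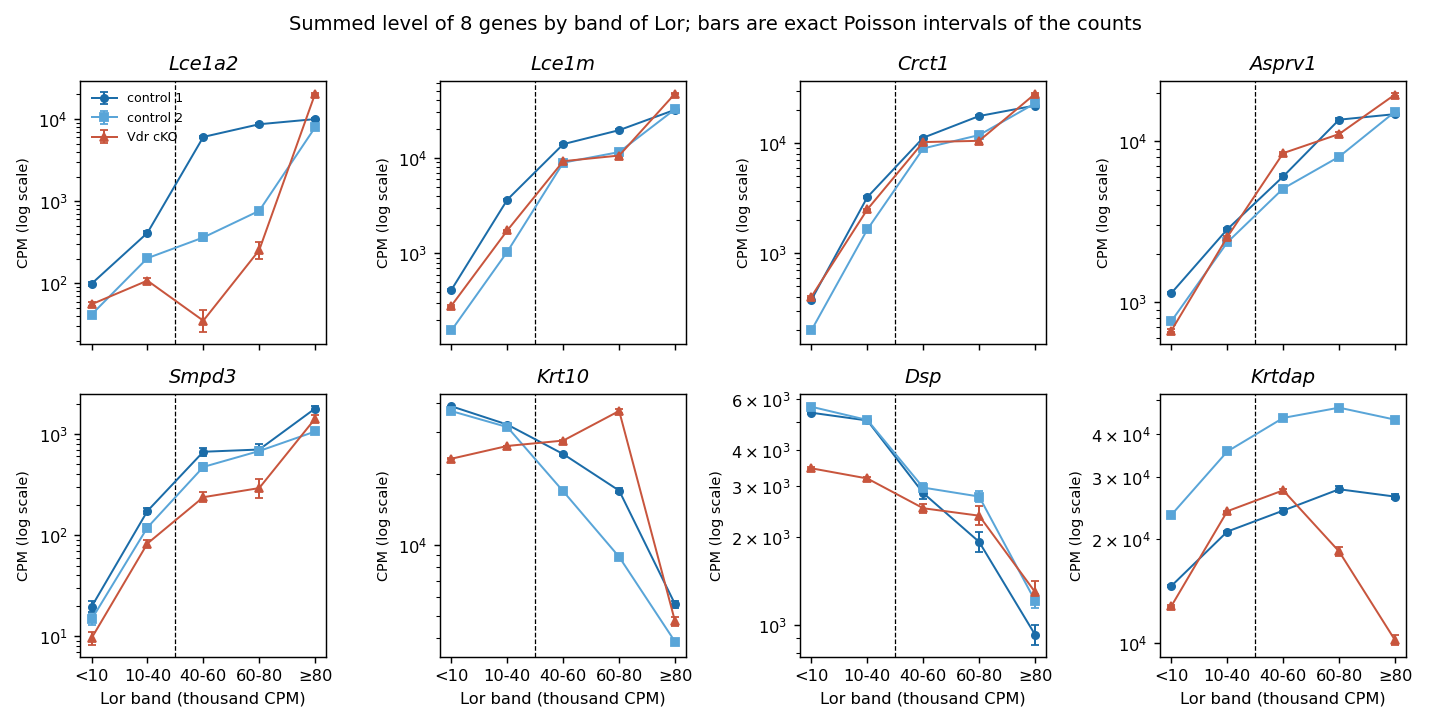
Pooled level (CPM, log scale) of named genes in 5 bands of *Lor* (under 10000, 10000 to under 40000, 40000 to under 60000, 60000 to under 80000, and 80000 CPM or more), with 1 line per library. *Lce1m*, *Crct1*, *Asprv1* and *Smpd3* are highest in the top band of each library, and *Krt10* and *Dsp* are lowest there. Median totals also rise over the bands of 40000 CPM or more in each library.

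The LCE1 genes did not mark the *Lor*-high barcodes evenly. A count of *Lce1a2* was present in 24, 37 and 27 of them (32.4%, 33.3% and 28.1%), and the median level was 0 in each library. After thinning to 1000 counts the shares were 21.9%, 25.5% and 16.7%, against 20.0%, 21.0% and 12.2% of intermediate barcodes and 15.0% (3.21 to 37.9), 20.0% (6.83 to 40.7) and 0% (up to 13.2) of those with antigen-presentation genes. In the controls the share thus lay within the interval of the background, and in the library labelled *Vdr* cKO it lay above it, with an interval of its own (9.84 to 25.7) that overlapped the background. Among 42, 72 and 66 *Lor*-high barcodes with at least 5000 counts, 11, 15 and 9 had *Lce1a2* at 1000 CPM or more. The lowest of these were at 2202 CPM, 5197 CPM and 1666 CPM, and the highest of the remaining barcodes at 440.5 CPM, 504 CPM and 398 CPM, so no barcode lay between. This subset held 34.3%, 10.7% and 12.2% of the counts of those barcodes but 99.8%, 99.7% and 99.8% of their *Lce1a2* counts. In the 19, 23 and 13 *Lor*-high barcodes under 3000 counts it was at 85.3 CPM, 4218 CPM and 2704 CPM. The split was drawn on *Lce1a2*, and its other genes are given as a description.

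The same barcodes held nearly all counts of other LCE1 genes, with 99.2%, 97.9% and 97.1% of *Lce1c* and 96.2%, 99.9% and 99.7% of *Lce1l*. *Lce1c* was at 17803 CPM, 13855 CPM and 24534 CPM in the subset and at 73.1 CPM, 36.2 CPM and 103 CPM in the remaining deep *Lor*-high barcodes. *Lce1m* was less divided, at 36896 CPM, 72094 CPM and 58336 CPM against 15568 CPM, 12477 CPM and 11448 CPM. *Crct1* was at 23062 CPM, 36888 CPM and 33806 CPM against 14427 CPM, 12858 CPM and 11216 CPM. *Lce1m* and *Crct1* were thus high in deep *Lor*-high barcodes with *Lce1a2* at 1000 CPM or more and in those under it. *Kprp* (3529 CPM, 3403 CPM and 3351 CPM against 1025 CPM, 649 CPM and 351 CPM) and *Aif1l* (1439.8 CPM, 1992 CPM and 2333 CPM against 425 CPM, 399 CPM and 441 CPM) were also higher in the subset. *Hmox1*, encoding heme oxygenase 1 and named after its values were seen, was at 2008 CPM, 1384 CPM and 694 CPM against 311 CPM, 215 CPM and 192 CPM.

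Other genes were lower in the *Lce1a2* subset, were higher in it by less, or had no common direction. *Krtdap* was at 20326 CPM, 19673 CPM and 6275 CPM against 29199 CPM, 48685 CPM and 25263 CPM. *Klk7* was at 3583 CPM, 3017 CPM and 1772 CPM against 8309.9 CPM, 8639 CPM and 5263 CPM, *Cnfn* at 1839.7 CPM, 1157 CPM and 716 CPM against 4049 CPM, 3125 CPM and 1301 CPM, and *Dsp* at 644 CPM, 1306 CPM and 518 CPM against 2315 CPM, 2229.8 CPM and 2485 CPM. Each of these 4 genes was lower in the subset in every library. *Krt10* was higher in the subset in control 1 (18599.6 CPM against 12482 CPM) and lower in control 2 (5916 CPM against 9754 CPM) and the library labelled *Vdr* cKO (3139.5 CPM against 27878 CPM), and *Krt77* had the same directions. *Asprv1* was higher in the subset in each library, at 11868 CPM, 17850 CPM and 16418 CPM against 11109 CPM, 9067 CPM and 10469 CPM. *Lor* was at 91434 CPM, 107602 CPM and 126094 CPM against 78564 CPM, 71575 CPM and 59944 CPM. *Btc* did not follow the LCE1 genes: it was at 423 CPM, 2499.8 CPM and 1591 CPM in the subset and at 3548 CPM, 2617 CPM and 3395 CPM outside it. *Flg* had no common direction. The subset had a median total of 14365, 14357 and 13026 counts against 22278, 34141 and 16025, while in control 1 its 11 of 42 barcodes held 34.3% of the counts. *Lce1a2* at 1000 CPM or more was also found in 45 of 536, 18 of 715 and 24 of 1007 other kept barcodes of at least 5000 counts, whose median *Lor* level was 10595 CPM, 6947 CPM and 8370.2 CPM.

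**Figure D5:**
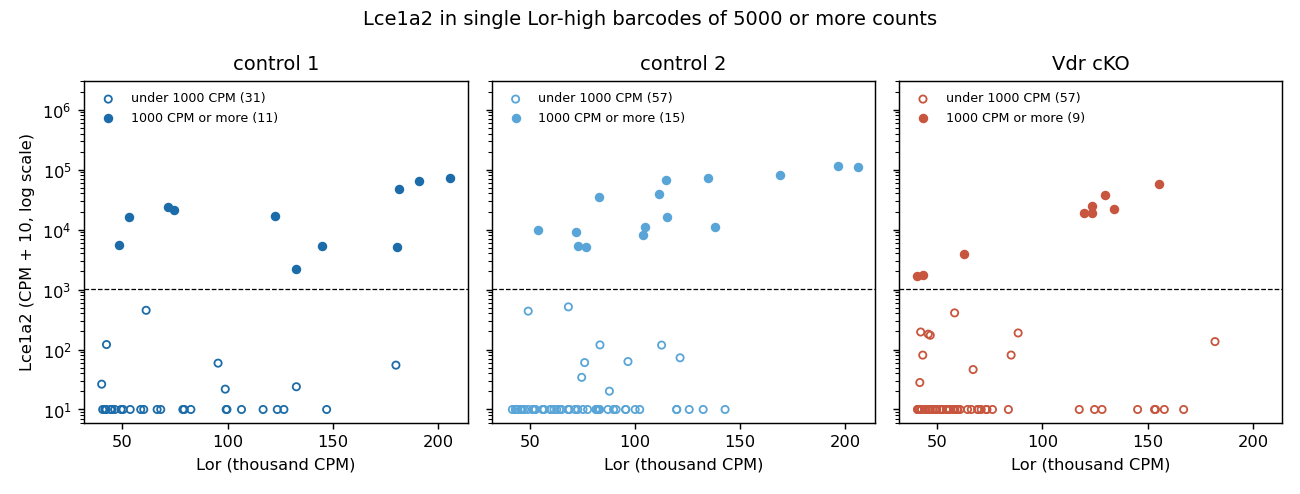
Level of *Lce1a2* (CPM plus 10, log scale) against *Lor* (CPM) in each *Lor*-high barcode with at least 5000 counts, by library, with a dashed line at 1000 CPM of *Lce1a2*. The 11, 15 and 9 barcodes above the line are separated from the remaining 31, 57 and 57 by a gap.

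*Vdr*, the floxed gene, was at 13.4 CPM (95% exact Poisson interval 8.47 to 20.0), 54.3 CPM (46.1 to 63.6) and 36.7 CPM (28.7 to 46.1) in *Lor*-high barcodes and was counted in 3, 9 and 10 of them. It was not lower in the library labelled *Vdr* cKO than in both controls, here or in the other barcodes (43.4 CPM, 33.9 CPM and 83.8 CPM). The counts are per gene and do not show whether the floxed exon is present, so they do not check the deletion. The library is therefore named by its label, and with 1 such library the genotype and the library cannot be told apart.

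Among the *Lor*-high barcodes, 2322 genes had at least 100 CPM in 1 library. The library labelled *Vdr* cKO was over 2-fold above both controls for 205 genes (8.83%) and below both for 140 (6.03%), together 345 (14.9%). Of the 205, 34 also had at least 100 CPM in a control, and of the 140, 24 had it in the library labelled *Vdr* cKO, so the counts here and over lists are in part set by the level. Control 1 stood apart from the remaining 2 libraries in this way for 545 genes (23.5%) and control 2 for 386 (16.6%). The library labelled *Vdr* cKO was thus apart for fewer genes than either control, whereas in the other kept barcodes it was apart for 98 genes (4.42%) and each control for 19 (0.858%). Only 19 genes were apart on the same side in both classes. With TMM or median-of-ratios factors the genes above both controls were 35.2% or 25.8% of those apart, in place of 59.4%. The genes apart in the library labelled *Vdr* cKO are given below as values of these libraries.

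With *Lor* left out, 2 of 13 cornified envelope genes compared, *Flg* and *Cnfn*, were below both controls, beside 6.03% of all genes compared. None of the 13 was above both. *Flg* was at 4935 CPM, 4513 CPM and 1844 CPM, and without the 5 deepest barcodes at 6377 CPM, 4757 CPM and 1675 CPM. *Cnfn* was at 3173 CPM, 2892 CPM and 1235 CPM. From the EGF family, only *Ereg* of 5 genes compared was below both controls, at 781 CPM, 535 CPM and 198 CPM. Of 12 LCE genes with at least 100 CPM in 1 library, 5 were below both controls, beside 6.03% of all genes compared. They were *Lce1b* (1276 CPM, 782 CPM and 309 CPM), *Lce1f* (814 CPM, 293 CPM and 129.6 CPM), *Lce1l* (1441 CPM, 1063 CPM and 306 CPM), *Lce1d* (362 CPM, 151 CPM and 4.52 CPM) and *Lce1e* (181 CPM, 96.4 CPM and 4.52 CPM). None was above. *Lce1a1*, *Lce1a2*, *Lce1c* and *Lce1m* were not apart. Without the 5 deepest barcodes *Lce1a1* was below both controls (3319 CPM, 1707 CPM and 787 CPM), as were *Flg2* and *Kprp*. Among barcodes of at least 5000 counts, nearly all *Lce1a2*, *Lce1c* and *Lce1l* counts came from 11, 15 and 9 barcodes, while *Lce1d* was counted in 6, 11 and 3 of all *Lor*-high barcodes. The other genes lowest against the nearer control were *Erc1*, *R3hcc1l* and *C230096K16Rik*. *Erc1* was at 104 CPM, 47.0 CPM and 0.502 CPM, counted in 4, 4 and 1 barcodes, and at 22.6 CPM in control 1 without the 5 deepest.

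Of 7 basal keratinocyte genes with at least 100 CPM in 1 library, 3 were above both controls, beside 8.83% of all genes compared, and *Itgb1*, an integrin, was below both (110.4 CPM, 22.8 CPM and 8.04 CPM). *Col17a1* and *Itgb1* reached the level in 1 library only. *Krt5* was at 425 CPM, 268 CPM and 955 CPM, *Krt14* at 392 CPM, 345 CPM and 839 CPM, and *Col17a1*, a hemidesmosome collagen, at 43.6 CPM, 53.3 CPM and 148 CPM. Without the 5 deepest barcodes of each library, *Krt5* was at 708 CPM, 307 CPM and 1246 CPM and *Krt14* at 654 CPM, 299 CPM and 1136 CPM, and neither was over 2-fold above both controls, whereas *Col17a1* still was. *Gata3*, a transcription factor of the inner root sheath and lower follicle, was at 146 CPM, 189 CPM and 413 CPM, and the Notch targets *Hes1* and *Nrarp* were at 19.2 CPM, 8.76 CPM and 126 CPM and at 30.2 CPM, 54.0 CPM and 114 CPM. In the other barcodes *Krt5* stood at 704 CPM, 438 CPM and 2358 CPM and *Krt14* at 904 CPM, 640.2 CPM and 2088 CPM. The part of other cells' RNA in these values was not tested. Stress genes were also above both controls, with 3 of 11 immediate early and 3 of 8 heat shock genes compared, beside 8.83%. None of these was below both, and their part was not tested either. The 5 highest against the nearer control were *Oat*, *Anxa5*, *Copz1*, *Picalm* and *Tor1aip1*. *Oat*, encoding ornithine aminotransferase, was at 0, 0.701 and 131 CPM, counted in 0, 1 and 18 barcodes. *Anxa5*, encoding annexin A5, was at 2.32 CPM, 1.05 CPM and 119 CPM. In the other barcodes *Oat* was at 27.1 CPM, 15.5 CPM and 104 CPM and *Anxa5* at 84.9 CPM, 88.8 CPM and 119 CPM. *Copz1*, *Picalm* and *Tor1aip1* were at 9.11 CPM or less in the controls, and reached 110.0 CPM, 109 CPM and 102 CPM in the *Lor*-high barcodes of the library labelled *Vdr* cKO. Thinned to 1000 counts, *Lor*-high barcodes of that library held more genes (403 against 255 and 317.5), and the part of this in the genes above both controls was not tested.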

How the data were processed

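Single-cell RNA sequencing of P18 dorsal skin was done by the authors with the Nadia droplet system and the RNAdia 2.0 kit. The authors deposited raw counts per gene and barcode for 3 libraries, with no normalization. The submitters' processing notes name the build mm10, and the paper names Seurat for the alignment. The aligner, the annotation, the use of strand and the collapsing of molecules are not given in the sources used here, so counts can include PCR copies.

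A barcode was kept when it had 200 or more detected genes and no more than 20% of its counts in mitochondrial genes, and the kept barcodes with 40000 CPM or more of *Lor* are the members. Doublets were not called or removed. Counts were pooled per library and class and divided by the pooled total (CPM). Genes were called at over 2-fold with 1 CPM added, at a level of 100 CPM. There is 1 *Vdr* cKO library, barcodes are not replicates, and *Lor* chose the classes, so no p-value was computed. Intervals are exact at 95% and cover counting error only. Shares of barcodes with a count were taken after thinning to 1000 counts. Named genes are those of the fixed lists, the 4 markers and *Vdr*. The 10 highest by their smallest ratio over the libraries and the 10 lowest by their largest ratio were also named. So were the 5 highest and 5 lowest of the *Vdr* cKO library against the nearer control. *Hmox1* was added after its values were seen. The members and the lists were chosen with earlier results of these data known. The columns of the files not used number 0.

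Python 3.11.15, numpy 2.4.6, pandas 2.3.3, scipy 1.17.1, matplotlib 3.10.9 and Biopython 1.88 were used, with edgeR 4.0.16 and DESeq2 1.42.0 in R 4.3.3 for scaling factors only. The calls were also tried on simulated data, of which no value is given here, so this bears on no result. Positions come from GENCODE M21 for 97.6% of 19927 symbols, and promoters from RefSeq for 143 of 181 higher and 92 of 119 lower genes.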

Additional observations from a re-analysis of the deposited data

Results flagged for a closer look

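*Abhd5*, encoding an activator of lipases in the barrier lipid list, had a log2 ratio of *Lor*-high over other barcodes of 0.44 in the library labelled *Vdr* cKO and of -1.62 and -2.21 in control 1 and control 2. It was at 53.4 CPM, 48.4 CPM and 186 CPM in *Lor*-high barcodes, counted in 10, 15 and 31 of them, and at 167 CPM, 228 CPM and 137 CPM in the others. It stands here because the direction was opposite in the controls, and the difference was not tested.

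Barcodes outside the kept set, which entered no comparison, also reached 40000 CPM of *Lor*. They numbered 89 in control 1, 59 in control 2 and 11 in the library labelled *Vdr* cKO, of 1308, 802 and 160 barcodes left out. Of these, 88, 59 and 11 had fewer than 200 detected genes. Their median total was 482, 265 and 417 counts over 70.0, 79.0 and 115 genes, so their *Lor* level rested on a median of only 33, 18 and 31 *Lor* counts.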

How the results depend on the processing

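Of 185 named and listed genes under 19 alternatives, 3302 values kept their side of the 2-fold limit, 141 lost the call and 72 gained one. None of these genes that was called changed the sign of its mean log2 ratio, and those without a call did so in 98 of the 3302. Over all called genes, 175 of 181 higher and 101 of 119 lower kept their sign in each library with the mean of single-barcode CPM, 179 and 119 without the 5 deepest barcodes, and 179 and 117 against intermediate barcodes. At a *Lor* limit of 30000 CPM 181 and 118 did. The 181 higher genes became 301 with TMM factors, 322 with median-of-ratios factors, 308 with no filter on low values, 102 at over 3-fold and 103 against intermediate barcodes, and 202 to 240 without a control library. The 119 lower genes became 69 at a *Lor* limit of 30000 CPM, 209 at 50000 CPM, 24 with TMM factors, 21 with median-of-ratios factors, 65 with the mean of single-barcode CPM, 622 at a level of 20 CPM, 2455 with no filter, 26 at over 3-fold and 32 against intermediate barcodes, and 191 to 196 without a control library. The share of higher genes among calls, 60.3% as reported, was 46.7% at a *Lor* limit of 50000 CPM, 71.1% with *Lor* left out of the totals, 29.6% at 20 CPM and 11.1% with no filter. The 345 genes apart in the library labelled *Vdr* cKO became 1714 at 20 CPM, 3834 with no filter and 143 at over 3-fold, and 667 to 868 without a control library. The shares of *Lor*-high barcodes, with the libraries ordered as in the report, were 8.58%, 10.2% and 6.22% at 30000 CPM, 3.18%, 5.07% and 2.14% at 50000 CPM, and 7.27%, 9.15% and 6.15% among barcodes of 5000 counts or more, in the same order of libraries each time. Without thinning, *Lce1a2* was counted in 28.1% of *Lor*-high barcodes of the library labelled *Vdr* cKO, and *Btc* in 45.0% in control 2 and 77.1% in the library labelled *Vdr* cKO, where it was 75.3% at 2000 counts. The cause of these changes was not tested. Chosen after seeing the data were the removal of antigen-presenting barcodes and of the 5 deepest *Lor*-high barcodes of each library, which gave 176 and 169 higher, 115 and 128 lower and 353 and 436 apart. No paired analysis was possible because the labels give no pairing between the groups and there is 1 *Vdr* cKO library. Depth limits single barcodes: at 1000 counts a single count is 1000 CPM.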
